A study of Mus musculus with 51 samples.

Results

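The comparison of the CA1 with the CA3 pyramidal layer of the hippocampus rests on 34 of the 51 arrays of the series, 17 of CA1 and 17 of CA3, which are all arrays of these layers, paired by mouse with the genotypes pooled. The layers were cut by laser from stained frozen sections, and their RNA was amplified and measured on the Affymetrix HT-MG-430A array. The other 17 arrays are of the dentate gyrus (DG) of the same mice and are used only for side-by-side values. Each mouse gave 1 array per layer. The mice were labelled female and 4.5 months old, 6 rTg4510, 5 tTA and 6 DN. rTg4510 mice carry a transgene for human tau with the P301L mutation and a transgene for the tetracycline-controlled transactivator tTA, which switches tau on in forebrain neurons because the CaMKIIα promoter drives it. tTA mice carry only the transactivator, and DN littermates carry neither transgene, while no group carries the tau transgene alone. The parents were of different inbred strains, so that every mouse was a cross. All 22626 probe sets other than the 90 controls were compared, and 18003 of them have 1 gene symbol, for 11807 genes.

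CA3 pyramidal neurons receive the mossy fibres of dentate granule cells and excite each other through recurrent collaterals, and their Schaffer collaterals excite CA1 pyramidal neurons, which carry the main output of the hippocampus. Both are glutamatergic neurons packed in 1 continuous layer, with the short CA2 stretch between them, and interneurons and glia lie in and around the layer. They are told apart by a small set of genes, among them transcription factors, adhesion and guidance molecules and calcium-handling proteins. A layer cut by laser is a bulk sample, so that fewer cells of a type and less RNA per cell cannot be told apart in any difference below.

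Array medians lay between 2.91 and 3.12 on the log2 scale over the 34 arrays, and Gapdh read 1.62 to 3.20 higher by its 3′ than by its 5′ probe set, a gap that widens as RNA degrades. The arrays of 2 mice went against a label. Prnp, the prion protein gene, was at 10.44 in CA1 and 9.65 in CA3 of DN mouse 4, within the 9.59 to 10.55 of rTg4510 arrays and above the 6.57 to 8.76 of the other DN mice. The same mouse had the 2 highest Gapdh differences (3.20 in CA1 and 3.17 in CA3), as the next array was at 2.87. Xist, the RNA of the inactive X chromosome, was at 2.49 in CA1 and 4.06 in CA3 of DN mouse 5 and at 7.85 to 9.38 in the other 16 mice. Neither label enters the comparison of CA1 with CA3 within a mouse. Both mice were kept, and counts without them stand beside the main counts.

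The CA1 arrays did not form 1 group. Pou3f1, a POU-domain transcription factor of CA1 pyramidal neurons, lay between 5.25 and 8.38 in 9 CA1 arrays and between 1.58 and 2.96 in the other 8, with nothing between, while the 17 CA3 arrays lay between 1.29 and 3.46. The 8 are those of rTg4510 mice 1, 3 and 6, tTA mice 1 and 4, and DN mice 1, 2 and 5, so that each genotype has some. Calb1, which encodes the calcium buffer calbindin, was at 1.69 to 3.30 in the 8 and at 5.09 to 7.11 in the other 9, against 1.63 to 4.13 in CA3. Wfs1, an endoplasmic reticulum protein and a common CA1 marker, was at 2.48 to 7.11 in the 8, against 8.46 to 10.46 in the other 9 and 6.22 to 8.20 in CA3. In these 3 genes the 8 arrays therefore lay within or below the CA3 range. Prkcd, the delta isoform of protein kinase C and a CA3 gene, ran the other way, at 3.72 to 6.53 in the 8 and 1.08 to 2.32 in the other 9. For Bok, a BCL-2 family member of CA3, the ranges were 5.25 to 7.80 and 2.89 to 5.18.

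The 8 arrays were still unlike CA3 in other genes. Crym, the thyroid hormone-binding protein mu-crystallin, was at 4.60 to 8.32 in them and at 1.28 to 4.75 in CA3, with 1 of the 8 inside the CA3 range. Synpr, the synaptic vesicle protein synaptoporin, was at 3.70 to 6.74 in them and at 7.70 to 8.77 in CA3, with no overlap. Of the genes of CA2 neurons, Necab2 and Cacng5 set 5 of the 8 apart. Necab2, a neuronal calcium-binding protein, was at 6.76 in rTg4510 mouse 3, 6.79 in tTA mouse 1, and 7.80, 6.87 and 7.38 in DN mice 1, 2 and 5, all above the other CA1 arrays, which reached 6.32. Cacng5, an auxiliary subunit of AMPA receptors, was at 7.15, 7.53, 8.68, 7.34 and 8.06 in the same 5 arrays and reached 6.82 in the other 9 of the 17. The remaining 3 of the 8, rTg4510 mice 1 and 6 and tTA mouse 4, had Cacng5 at 3.12, 4.05 and 3.14. Other CA2 genes overlapped between the 8 and the other 9, with Rgs14 at 2.63 to 5.72 in the 8 and 2.39 to 5.14 in the other 9, Pcp4 at 9.48 to 10.91 and 8.46 to 10.86, and Ptpn5 at 5.33 to 7.66 and 4.06 to 6.83. Within the 8, the same 5 arrays had Rgs14 at 4.66 to 5.72 and the remaining 3 at 2.63 to 2.75. Pcp4 was at 10.59 to 10.91 in the 5 and 9.48 to 10.23 in the 3. Ptpn5 overlapped, at 6.22 to 7.66 in the 5 and 5.33 to 6.73 in the 3. Of the dentate granule cell markers, Prox1, their defining transcription factor, reached 3.54 in the 8, 2.55 in the other 9 and 3.33 in CA3, against 4.36 to 7.29 in the DG. Dsp, a desmosomal protein, reached 3.10 in the 8, 5.10 in the other 9 and 6.47 in CA3, against 8.37 to 9.58 in the DG. C1ql3, a secreted synaptic protein, reached 4.62 in the 8, 5.95 in the other 9 and 4.23 in CA3, so that some of the 9 lay within its DG range of 4.78 to 9.07. What these captures hold was not tested, and since the 8 were picked by their CA1 values, results without them are a description.

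**Figure D1:**
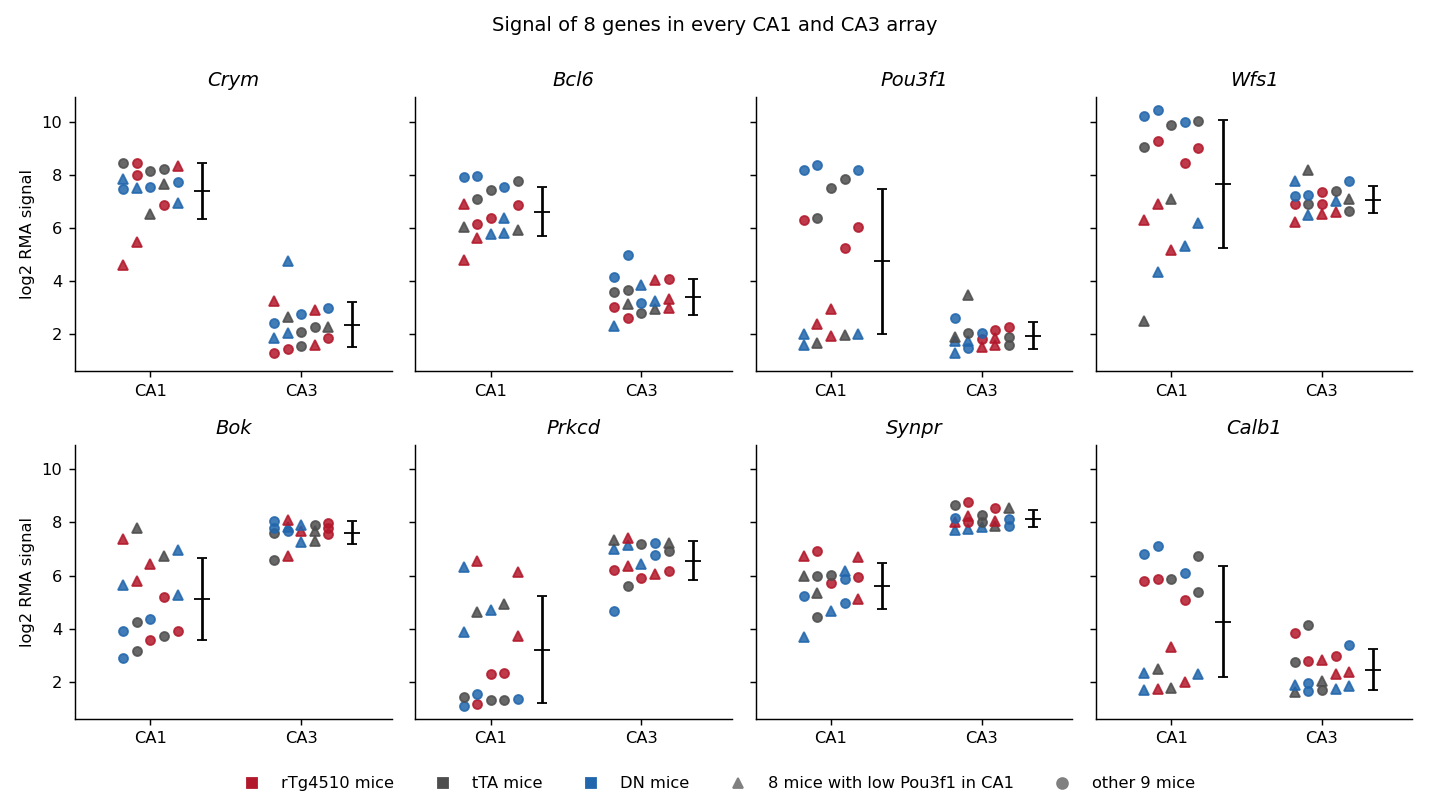
Log2 signal of 8 genes in each of the 17 CA1 and 17 CA3 arrays, coloured by genotype, with the mean and SD of all 17 beside them. Triangles are the 8 mice whose CA1 arrays lay at 2.96 or below in Pou3f1, which sit apart from the other 9 CA1 arrays in Pou3f1, Wfs1, Calb1, Prkcd and Bok, while CA1 and CA3 do not overlap in Synpr.

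A single scale shows how far each array lay along the difference. For each mouse, the probe sets called without it (702 to 928) were used to place its arrays on a line on which the CA3 mean of the other 16 mice is 0 and their CA1 mean is 1. CA3 arrays lay between −0.02 and 0.23. CA1 arrays lay between 0.86 and 1.23 in 13 mice, and at 0.24 in rTg4510 mouse 6, 0.39 in rTg4510 mouse 1, 0.51 in tTA mouse 4 and 0.56 in DN mouse 2. These 4 are among the 8 arrays low in Pou3f1, and the other 4 of the 8 lay at 0.86 (tTA mouse 1), 0.90 (rTg4510 mouse 3), 0.92 (DN mouse 1) and 1.04 (DN mouse 5). The share of those probe sets that went the same way in the mouse left out was 57.8% in rTg4510 mouse 6 and 91.5% in rTg4510 mouse 5, the lowest and highest of the 17.

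**Figure D2:**
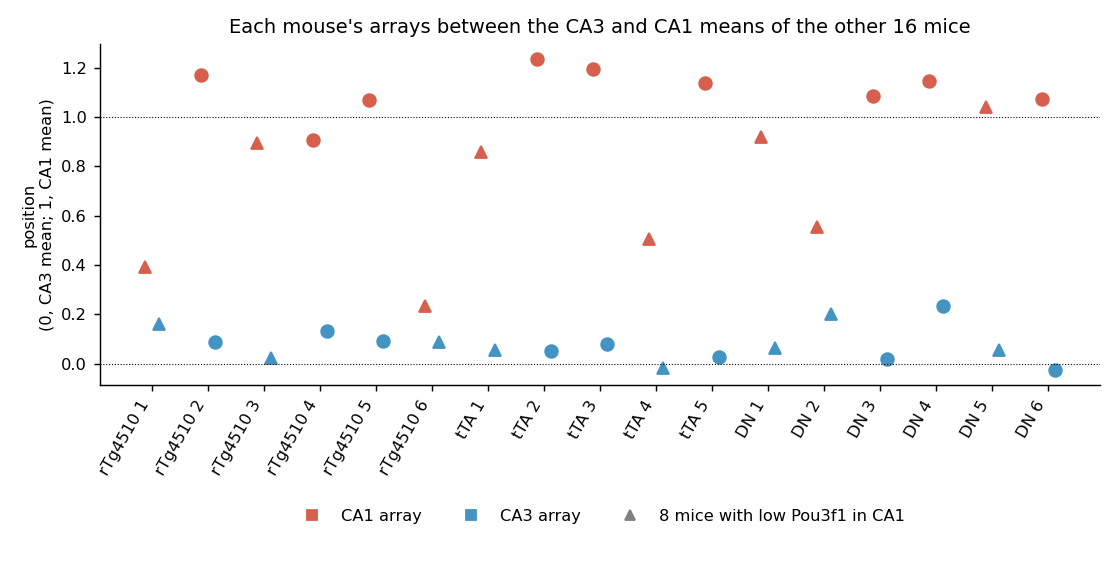
Position of each mouse's CA1 and CA3 arrays between the CA3 mean (0) and the CA1 mean (1) of the other 16 mice, over the probe sets called without that mouse. The 4 lowest CA1 arrays lie at 0.56 or below, and every CA3 array lies at 0.23 or below.

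The 6 genes chosen as markers of the layers all differed between them. In each case the difference is the mean over 17 mice of CA1 minus CA3 on the log2 scale, on which 1 is a doubling of signal, tested with limma with the mouse as a block and adjusted over all probe sets. The p values therefore measure the spread between mice. Crym was at 4.60, 7.66 and 8.46 (lowest, median, highest) in CA1 and at 1.28, 2.27 and 4.75 in CA3, a difference of 5.05 (SE 0.32, adjusted p = 8.12e-08), and it was higher in CA1 in 17 of 17 mice. The ranges overlapped only through the CA1 array of rTg4510 mouse 6 (4.60) and the CA3 array of DN mouse 2 (4.75). Bcl6, a transcriptional repressor, was at 4.80, 6.38 and 7.95 in CA1 and at 2.30, 3.24 and 4.97 in CA3 (difference 3.20, SE 0.23, adjusted p = 2.82e-07, higher in 17 of 17), and the second probe set of Bcl6 was also called. Pou3f1 was at 1.58, 5.25 and 8.38 in CA1 and at 1.29, 1.86 and 3.46 in CA3 (difference 2.80, SE 0.62, adjusted p = 0.0124, higher in 16 of 17). Its SE was the largest of the 6, and its 8 low CA1 arrays overlapped CA3. The other probe set of Pou3f1, at 1.64 in CA1 and 1.62 in CA3, was not called.

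Synpr was 1 of 2 probe sets of 22626 (0.00884%) whose CA1 and CA3 arrays did not overlap. It was at 3.70, 5.87 and 6.92 in CA1 and at 7.70, 8.06 and 8.77 in CA3, a difference of −2.52 (SE 0.19, adjusted p = 6.67e-07). The other was Tagln3, a neuronal actin-binding protein of the calponin family, at 5.10, 7.49 and 8.12 in CA1 and 8.26, 8.58 and 9.01 in CA3 (difference −1.38, SE 0.20, adjusted p = 0.000377). Prkcd was at 1.08, 2.32 and 6.53 in CA1 and at 4.67, 6.78 and 7.40 in CA3 (difference −3.35, SE 0.45, adjusted p = 0.000257, lower in 16 of 17). Bok was at 2.89, 5.18 and 7.80 in CA1 and at 6.57, 7.69 and 8.09 in CA3 (difference −2.50, SE 0.37, adjusted p = 0.00045, lower in 15 of 17). In the 9 mice left without the 8, the differences were 5.81 for Crym, 3.67 for Bcl6, 5.13 for Pou3f1, −2.59 for Synpr, −4.76 for Prkcd and −3.78 for Bok. Synpr thus moved least and Pou3f1 most. The 8 mice were picked by low Pou3f1 in CA1, so that the rise of Pou3f1 was fixed by the choice.

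Promoters of the markers are shown for the 2 genes that held a searched motif, 1 from each direction, since the motifs are those of a POU factor and of Bcl6, both markers here, while the windows of Bok and Prkcd held none of the 4 motifs searched and those of Crym and Pou3f1 were not searched here. The windows run from 250 bases before to 50 after the start in RefSeq's annotation of GRCm38.p6. Synpr, lower in CA1, has the octamer ATGCAAAT, the site of POU-domain factors such as the product of Pou3f1, which is in capitals at 167 bases before the start (chr14:13453708-13454007, plus strand). The other of the 2 Synpr windows lacks the octamer and is not shown. Bcl6, higher in CA1, has TTCNNNGAA, the palindrome bound by STAT factors and, in a longer form, by Bcl6 itself. It is in capitals at 1 place in the upstream window (chr16:23988803-23989102, minus strand) and at 3 places in the downstream window (chr16:23981234-23981533, minus strand).
Synpr: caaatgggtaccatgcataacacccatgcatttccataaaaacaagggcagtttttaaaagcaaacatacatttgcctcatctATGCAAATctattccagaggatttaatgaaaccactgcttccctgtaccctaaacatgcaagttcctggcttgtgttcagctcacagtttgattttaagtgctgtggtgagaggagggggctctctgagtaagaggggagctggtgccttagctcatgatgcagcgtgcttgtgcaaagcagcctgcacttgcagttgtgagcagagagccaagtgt
Bcl6 upstream start: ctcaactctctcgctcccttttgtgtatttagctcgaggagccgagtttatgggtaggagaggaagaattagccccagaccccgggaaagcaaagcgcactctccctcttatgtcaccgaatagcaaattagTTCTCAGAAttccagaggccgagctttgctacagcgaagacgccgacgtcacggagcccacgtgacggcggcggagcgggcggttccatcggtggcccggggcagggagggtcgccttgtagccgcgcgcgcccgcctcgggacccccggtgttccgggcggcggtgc
Bcl6 downstream start: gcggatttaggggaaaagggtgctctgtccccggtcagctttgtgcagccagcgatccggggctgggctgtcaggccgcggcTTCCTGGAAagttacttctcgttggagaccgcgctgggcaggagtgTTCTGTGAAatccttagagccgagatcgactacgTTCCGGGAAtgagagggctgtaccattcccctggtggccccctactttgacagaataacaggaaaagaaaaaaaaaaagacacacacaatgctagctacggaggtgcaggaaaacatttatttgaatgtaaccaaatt

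Of the genes called by their brightest probe set, 223 of 279 higher and 185 of 253 lower had a promoter in the table, as did 9430 of the 11807 on the array. A gene was counted once if any of its windows held the motif on either strand. ATGCAAAT was in 2.69% of the higher genes (6 of 223) and 2.70% of the lower (5 of 185). It was in 1.92% of the array's genes with a promoter and 1.97% of all genes with a promoter. TTCNNNGAA was in 9.42%, 6.49%, 8.59% and 9.55% in the same order. The E-box CAGATG, bound by neuronal bHLH factors, was in 13.5%, 15.1%, 15.2% and 19.2%, and the cAMP response element TGACGTCA in 3.59%, 1.62%, 2.96% and 2.03%. The shares are a description, and the 4 motifs do not contain each other.

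Across all probe sets 474 (2.09%) were higher and 428 (1.89%) lower in CA1 than in CA3 at an adjusted p of 0.05. With the brightest probe set of each gene, 279 of 11807 genes (2.36%) were higher and 253 (2.14%) lower. Any probe set counted, 318 genes were higher and 304 lower, and none had probe sets called both ways. The median size of a called difference was 0.84, and 201 higher and 141 lower calls were larger than 1. The difference ran the same way in all 17 mice for 85 calls and in at least 16 for 265. Without DN mice 4 and 5, 378 were higher and 314 lower, and 629 of the 902 calls of the full set were shared. Without the 8 mice, 426 were higher and 299 lower, and 501 of the 902 were shared. All 902 kept their sign, but the 9 mice are part of the 17 that made the calls. Of the 279 higher genes 213 had a larger difference without the 8, with a median of 1.08 in the 9 mice and 0.91 in all 17, and of the 253 lower genes 184 did, with medians of −0.86 and −0.74. The 8 were left out for low Pou3f1 in CA1, so larger differences were favoured by the choice. The share of all genes with a larger difference is not given here. Genes that joined the calls include Wfs1, which was not called in all 17 mice (0.59, SE 0.57, adjusted p = 0.696) and differed by 2.46 in the 9.

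**Figure D3:**
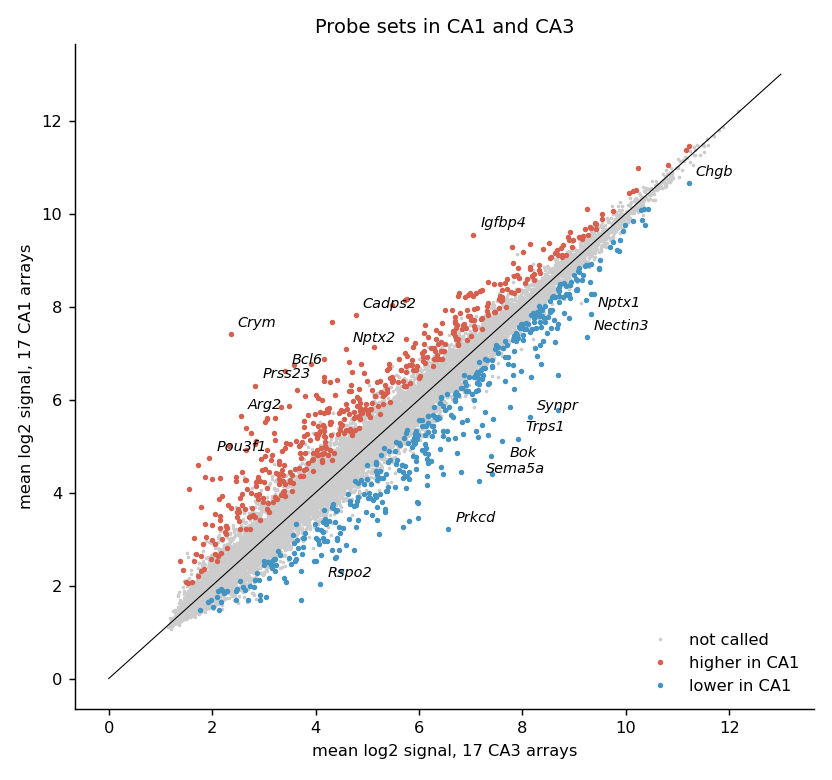
Mean log2 signal of every probe set over the 17 CA1 arrays (vertical) against the 17 CA3 arrays (horizontal). The 474 probe sets higher and 428 lower in CA1 are coloured, and named genes stand right of their points, with Crym farthest above the line and Prkcd farthest below it.

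The 20 genes with the largest positive differences among those higher in at least 16 of 17 mice differed by 2.0 to 5.05. They include 6 secreted or matrix proteins. Prss23, a serine protease, was at 3.11, 6.21 and 8.41 in CA1 and at 1.82, 2.70 and 4.87 in CA3 (difference 3.47, SE 0.44, adjusted p = 0.000151). Igfbp4, which binds insulin-like growth factors, was at 7.62, 9.91 and 10.26 in CA1 and at 3.71, 7.22 and 8.35 in CA3 (2.50, SE 0.32, adjusted p = 0.000163), and all 6 of its probe sets were called. Matn2, the matrix protein matrilin, was at 2.95, 5.27 and 6.96 in CA1 and at 2.29, 2.60 and 4.05 in CA3 (2.27, SE 0.25, adjusted p = 3.28e-05). Ccn3, a matricellular protein, differed by 2.31 (SE 0.38) and Sostdc1, a secreted antagonist of BMP and Wnt signalling, by 2.49 (SE 0.37). Nptx2, a secreted pentraxin that gathers AMPA receptors at synapses, was at 4.79, 7.39 and 8.30 in CA1 and at 2.40, 5.18 and 6.22 in CA3 (2.51, SE 0.30, adjusted p = 9.46e-05).

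Enzymes and intracellular proteins made up most of the rest. Arg2, a mitochondrial arginase, was at 1.84, 6.01 and 8.03 in CA1 and at 1.52, 2.34 and 4.20 in CA3 (3.10, SE 0.48, adjusted p = 0.000703), and its DG mean was 2.64. Gda, the guanine deaminase cypin, differed by 2.24 (SE 0.31). Cadps2, which primes dense-core vesicles, was at 4.91, 8.10 and 9.18 in CA1 and at 2.78, 4.97 and 7.15 in CA3 (3.05, SE 0.39, adjusted p = 0.000167). The small GTPase gene Rasl11b was higher in 17 of 17 mice, at 5.69, 8.34 and 8.97 in CA1 and 4.56, 5.45 and 6.70 in CA3 (2.56, SE 0.25, adjusted p = 1.36e-05). Actin regulators were there with Cotl1 (2.51, SE 0.25, all 4 probe sets called) and the formin gene Diaph2 (2.38, SE 0.36). Kcnk2, a background potassium channel, differed by 2.34 (SE 0.35), Sez6, a dendritic protein, by 2.0 (SE 0.28), and Klhl13, a ubiquitin ligase adaptor, by 2.0 (SE 0.40). Necab2 (2.74, SE 0.34) and Syce2, a gene of the meiotic synaptonemal complex (2.68, SE 0.38), complete the list with the 3 markers. Those higher in CA1 were not always low in the DG, whose mean was 6.80 for Gda and 7.95 for Cadps2, close to CA1 (6.41 and 7.82).

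The 20 genes at the other end, lower in at least 16 of 17 mice, differed by −1.44 to −3.35. They include guidance and adhesion molecules. Sema5a, a transmembrane semaphorin, was at 1.84, 4.18 and 6.68 in CA1 and at 5.83, 7.20 and 8.50 in CA3 (−2.90, SE 0.35, adjusted p = 9.49e-05). Slit2, the secreted ligand of Robo receptors, was at 1.92, 3.47 and 5.86 in CA1 and at 5.12, 6.11 and 6.65 in CA3 (−2.19, SE 0.29, adjusted p = 0.000198). Cdh9, a classical cadherin known in mice for mossy fibre contacts in CA3, was at 2.44, 3.25 and 6.37 in CA1 and at 3.93, 6.07 and 6.68 in CA3 (−2.18, SE 0.24, adjusted p = 3.28e-05). Nectin3, whose product joins cells at adherens junctions, was at 4.93, 7.54 and 9.06 in CA1 and at 8.83, 9.24 and 9.63 in CA3 (−1.90, SE 0.28, adjusted p = 0.000384). In Slit2 and Nectin3 the overlap of the layers came from CA1 arrays of the 8 mice alone, whose ranges were 2.96 to 5.86 and 7.54 to 9.06, since the other 9 reached 3.66 and 7.70.

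Regulators and signalling proteins were also among them. Trps1, a GATA-type repressor, was at 1.92, 5.54 and 7.23 in CA1 and at 7.23, 7.94 and 8.48 in CA3 (−2.76, SE 0.39, adjusted p = 0.000317). Rspo2, a secreted enhancer of Wnt signalling, was at 1.0, 2.0 and 2.86 in CA1 and at 2.39, 3.94 and 5.09 in CA3 (−2.06, SE 0.21, adjusted p = 2.15e-05), so that CA1 was near the lowest values of the arrays. The kinase genes Camk2d and Map3k5 differed by −1.77 (SE 0.20) and −1.66 (SE 0.25), and the receptor phosphatase gene Ptprk by −1.50 (SE 0.21). Transport proteins were Slc26a4, the anion exchanger pendrin (−2.38, SE 0.35), and Fxyd7, a regulator of the sodium pump (−1.99, SE 0.27). The flavin monooxygenase gene Fmo1 was at 1.34, 1.58 and 2.08 in CA1 and at 2.0, 3.94 and 5.96 in CA3 (−2.04, SE 0.33, adjusted p = 0.00105), the cadherin-related Cdhr1 differed by −1.58 (SE 0.20), the scaffold gene Magi3 by −1.54 (SE 0.20), Enox2 by −1.55 (SE 0.22), the kallikrein gene Klk10 by −1.47 (SE 0.22) and the glutaminyl cyclase gene Qpct by −1.44 (SE 0.20). The markers Prkcd and Synpr and the calcium-binding Necab3 are the other 3 of the 20. All 40 genes stayed called with any 1 mouse left out (highest adjusted p = 0.0273, for Pou3f1). The 40 were picked from these same mice for large differences on a shared side, so staying called was favoured by the choice. Without the 8 mice, 32 of the 40 had a larger difference. The 8 were left out for low Pou3f1 in CA1, which favoured larger differences too. Not all of the 40 stayed called by limma without the 8 mice. Fmo1 had an adjusted p of 0.0987, and Sostdc1 passed narrowly at 0.049.

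**Figure D4:**
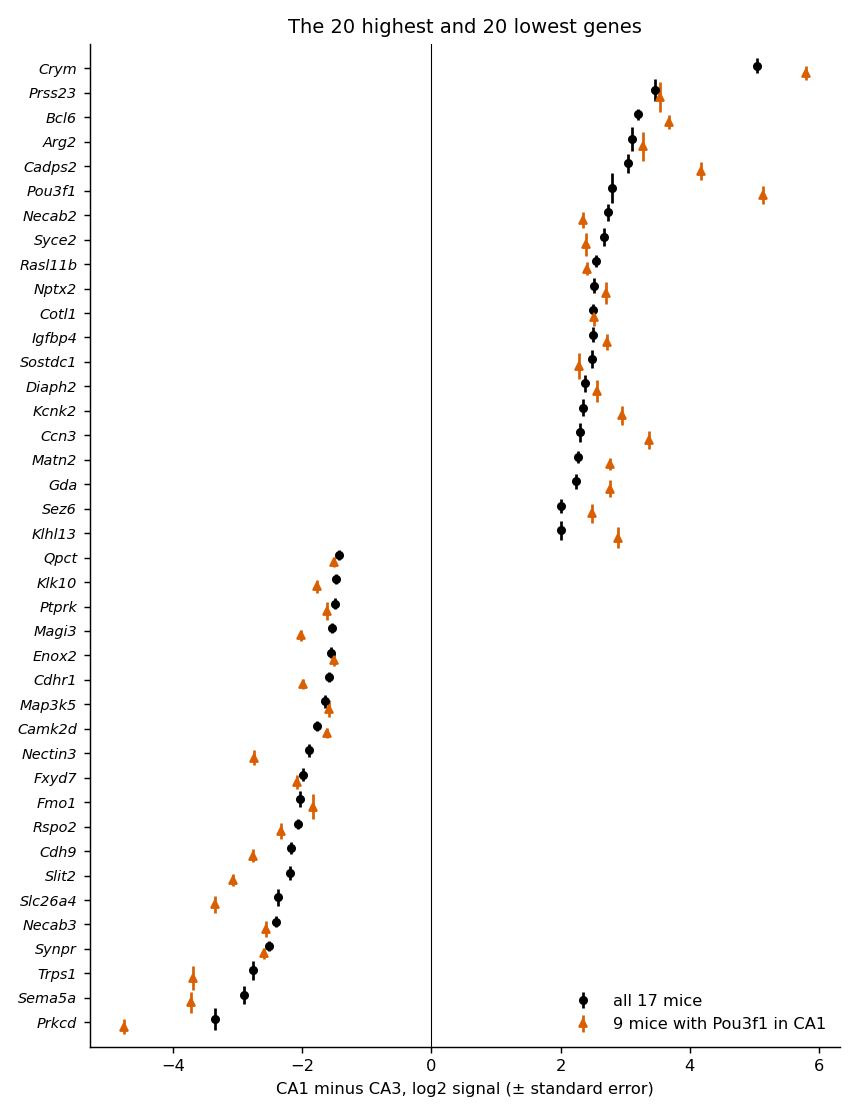
Difference of CA1 minus CA3 (log2, mean ± standard error) for the 20 highest and 20 lowest genes, over all 17 mice (circles) and over the 9 mice whose CA1 arrays lay at 5.25 or above in Pou3f1 (triangles). Pou3f1, by which the 9 were picked, moves most between the sets, at 2.80 in all 17 and 5.13 in the 9.

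Members of a gene family differed in opposite directions in 4 pairs, which were picked after their values were seen. Necab2 was higher in CA1 (2.74) and Necab3, at 2.60, 3.26 and 4.67 in CA1 and 4.17, 6.13 and 7.22 in CA3, was lower (−2.41, SE 0.23, adjusted p = 1.06e-05). Nptx2 was higher (2.51) and Nptx1, the other secreted neuronal pentraxin, was lower, at 6.09, 7.93 and 9.08 in CA1 and 8.68, 9.42 and 9.81 in CA3 (−1.48, SE 0.22, adjusted p = 0.000402). Of the auxiliary AMPA receptor subunits, Cacng5 was higher (2.54, SE 0.53, adjusted p = 0.0076) and Cacng2, which encodes stargazin, was lower (−1.29, SE 0.24, adjusted p = 0.00301). Of the background potassium channels, Kcnk2 was higher and Kcnk4, near the lowest signals at 1.48, 2.01 and 4.03 in CA1 and 2.27, 3.11 and 5.68 in CA3, was lower (−1.24, SE 0.28, adjusted p = 0.013). Necab2 and Cacng5 are the pair members that were highest in the 5 CA1 arrays above. In the 9 mice without the 8, Necab2 differed by 2.35 (adjusted p = 0.00369) and Cacng5 by 1.97, which was no longer called (adjusted p = 0.0953). The part of those arrays in the differences was not tested.

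Marker lists of the layers are given by counts beside the 2.36% higher and 2.14% lower of all genes, whose median difference was −0.03. Without the 8 mice 250 of 11807 genes were higher and 171 lower. Of 8 CA1 pyramidal genes 4 were higher (Crym, Bcl6, Pou3f1 and Ccn3) and none lower, with a median of 1.62, and without the 8 mice 6 were higher. The other 4 were Wfs1, Dcn, which encodes decorin and was near the lowest signals in both layers (2.04 in CA1 and 2.12 in CA3), Ndst4, a heparan sulphate enzyme (0.93, SE 0.31, adjusted p = 0.121), and Htr1a, a serotonin receptor (0.92, SE 0.35, adjusted p = 0.184). Ndst4 lay at 1.43 to 2.03 in the 8 CA1 arrays and 2.06 to 5.15 in the other 9. Of 9 CA3 genes 7 were lower, Bok, Prkcd, Synpr, Slit2, Nectin3, Iyd (−1.45, SE 0.25) and Homer3 (−0.69, SE 0.17, adjusted p = 0.0258), with a median of −1.90 for the list, and 6 were lower without the 8 mice. Homer3, a postsynaptic scaffold, was not called with tTA mouse 2 left out (adjusted p = 0.0512). Cadps2 was listed for CA3 but was higher in CA1, and the neuropeptide Y receptor gene Npy2r, also listed, was at 4.34 ± 0.74 in CA1 and 3.70 ± 0.80 in CA3 (SD, n = 17 each; adjusted p = 0.191).

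Of 7 CA2 genes 4 were higher in CA1 and none lower, with a median of 0.77, and 2 were higher without the 8 mice. Rgs14, a regulator of G protein signalling that restrains plasticity in CA2 of mice, was at 2.39, 3.86 and 5.72 in CA1 and at 1.72, 2.19 and 2.85 in CA3 (1.74, SE 0.24, adjusted p = 0.000291). Necab2 and Cacng5 were called too, and Ptpn5, the phosphatase STEP, narrowly (0.77, SE 0.21, adjusted p = 0.0497), a call lost when any of 14 mice was left out (up to 0.0931). Pcp4, a calmodulin-binding peptide, was high in both layers (10.16 in CA1 and 9.72 in CA3), and Avpr1b, the vasopressin receptor gene of CA2, was near the lowest signals (1.80 in both). The summed linear signal of the 7 was 456 to 2605 in CA1 and 438 to 1598 in CA3. Of 9 dentate granule genes 2 were higher, Ahcyl2, a regulator of calcium release (1.34, SE 0.27, adjusted p = 0.00537), and Calb1 (1.80, SE 0.42, adjusted p = 0.0185), which CA1 neurons also express. The list's summed signal was 93 to 415 in CA1, 69 to 257 in CA3 and 1048 to 2099 in the DG. The 5 mossy cell genes held 0 calls by limma in either direction.

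Of 19 inhibitory interneuron genes 6 were higher and none lower, 17 had a difference above 0, and the median was 0.65. Over all genes 2.36% were higher, 2.14% lower and 43.2% above 0, with a median of −0.03. Without the 8 mice 4 were higher and the median was 0.83, beside 250 of 11807 genes and a median of −0.06. Gad1, the enzyme that makes GABA, was at 6.11, 7.36 and 7.90 in CA1 and at 5.30, 6.22 and 7.36 in CA3 (0.88, SE 0.20, adjusted p = 0.018). Pvalb, the calcium buffer of basket cells, was at 7.47, 8.57 and 9.80 in CA1 and at 3.22, 7.80 and 8.45 in CA3 (1.18, SE 0.28, adjusted p = 0.0188). Vip, a neuropeptide of interneurons that inhibit other interneurons, was at 1.40, 3.39 and 5.31 in CA1 and at 1.16, 1.69 and 3.36 in CA3 (1.45, SE 0.36, adjusted p = 0.0269), and was not called with any of 7 mice left out (up to 0.0559). The others were Dlx2, a homeobox gene of the interneuron lineage (1.12), Erbb4, the neuregulin receptor (0.68), and Nxph1, a ligand of neurexins (1.17), of which Erbb4 and Nxph1 lost the call with any of 10 and 13 mice left out (up to 0.074 and 0.0945). The list's summed signal was 1160 to 2798 in CA1, with a median of 1728, and 1060 to 1471 in CA3, with a median of 1208.

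The lists of oligodendrocytes, their precursors, astrocytes, microglia, vessels and choroid plexus held 72 measured entries, of which 1 was higher and 1 lower, both from the 16 astrocyte genes. Of all genes 2.36% were higher and 2.14% lower. Slc1a2, the main glutamate transporter of astrocytes, which CA3 neurons also transcribe, was at 9.21 ± 0.50 in CA1 and 9.83 ± 0.20 in CA3 (SD, n = 17 each; difference −0.62, adjusted p = 0.0138), and S100b was at 6.37 ± 0.59 in CA1 and 5.82 ± 0.58 in CA3 (0.55, adjusted p = 0.0414, lost with any of 11 mice left out, up to 0.0828). The summed signal of the 13 oligodendrocyte genes was 199 to 2490 in CA1 and 307 to 1659 in CA3, and that of the 18 microglial genes 141 to 906 in CA1 and 116 to 566 in CA3. The 12 general excitatory neuron genes held 0 calls by limma. Hpca, the calcium sensor hippocalcin, was at 10.71 ± 0.15 in CA1 and 10.51 ± 0.14 in CA3 (adjusted p = 0.0545).

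**Figure D5:**
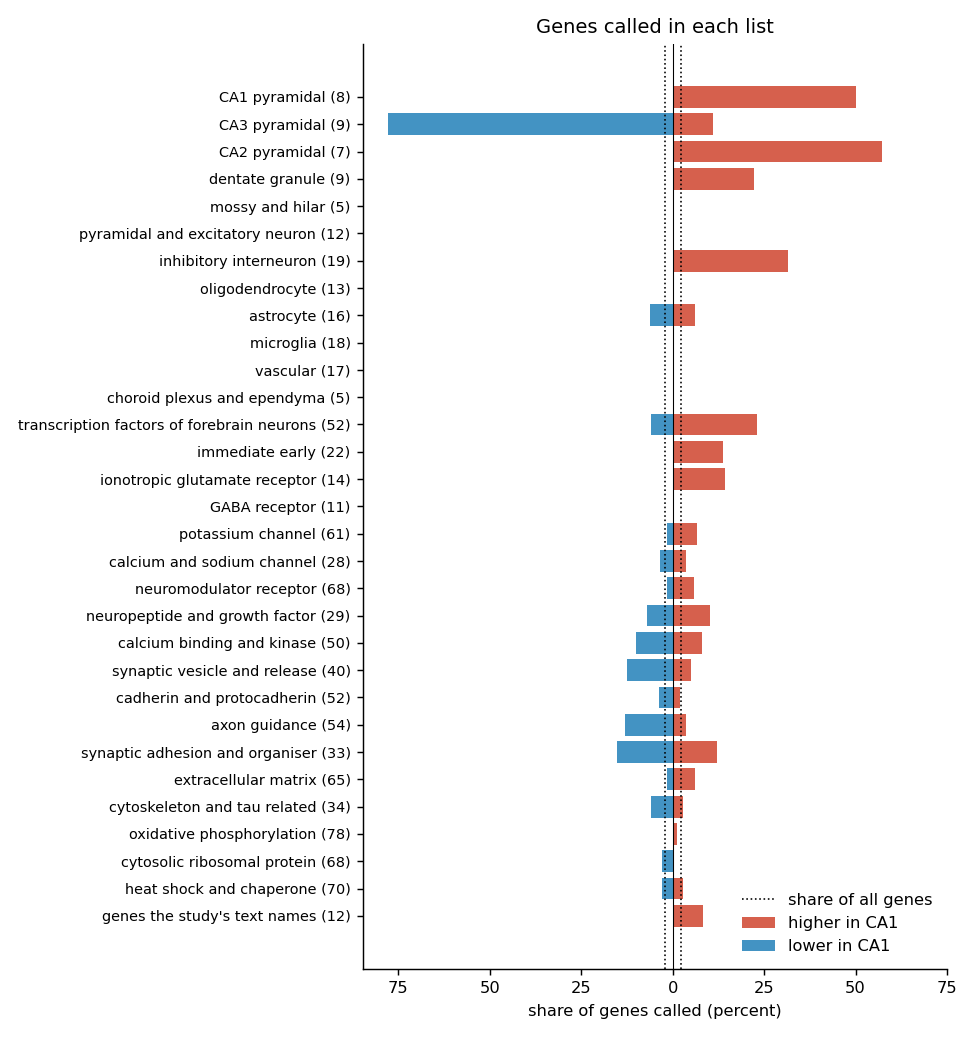
Percent of each list's measured genes (number in brackets) called lower in CA1 (left) and higher in CA1 (right), for lists of at least 5 measured genes. Dotted lines mark the 2.36% higher and 2.14% lower of all genes, and the longest bars are those of the CA3, CA2 and CA1 pyramidal lists.

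Transcription factors of forebrain neurons had the most calls of the functional lists. The counts of these lists stand beside the 2.36% higher and 2.14% lower of all genes, and the small counts of long lists lie near those shares. Of 52 measured, 12 were higher and 3 lower, with a median of 0.09. Bcl11b, which encodes Ctip2, was at 3.44, 4.83 and 5.89 in CA1 and at 3.01, 3.20 and 3.80 in CA3 (1.38, SE 0.15, adjusted p = 2.69e-05, higher in 17 of 17). Meis2, a homeobox gene, was at 3.22, 4.25 and 5.83 in CA1 and at 2.44, 2.90 and 3.48 in CA3 (1.34, SE 0.16, adjusted p = 6.73e-05). Foxp1, a forkhead repressor, was at 6.30, 8.29 and 9.48 in CA1 and at 4.45, 6.96 and 7.97 in CA3 (1.52, SE 0.24, adjusted p = 0.000703), with 5 of its 7 probe sets called. Etv1 (1.32, SE 0.21) and Zbtb20, a repressor needed for hippocampal identity in mice (0.62, SE 0.11, higher in 17 of 17), were also higher. Zfpm2, a partner of GATA factors, was lower, at 2.01, 3.72 and 4.96 in CA1 and 3.62, 5.01 and 6.64 in CA3 (−1.40, SE 0.20, adjusted p = 0.000337), as was Tle4, a Groucho corepressor (−0.97, SE 0.15).

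Of 22 immediate early genes 3 were higher and none lower. Nr4a1, an orphan nuclear receptor induced by activity, was at 3.29, 4.89 and 7.18 in CA1 and at 2.85, 3.38 and 5.79 in CA3 (1.49, SE 0.21, adjusted p = 0.00037, higher in 17 of 17). Nr4a2 differed by 1.24 (SE 0.29, adjusted p = 0.0195), and the third was Nptx2. Among receptors the calls were few. Of 14 ionotropic glutamate receptor subunits, Grin2b was higher (1.30, SE 0.26, adjusted p = 0.00566), as was Gria1 (0.36, SE 0.09, adjusted p = 0.0278), which lost the call with any of 5 mice left out (up to 0.0574). Neto1, an auxiliary subunit of kainate receptors outside the list, was lower, at 5.26, 7.32 and 8.82 in CA1 and 7.96, 8.44 and 8.95 in CA3 (−1.14, SE 0.27, adjusted p = 0.0195). The 11 GABA receptor genes held 0 calls by limma, with a median of 0.33, and the subunit gene Gabrg3 came closest (1.11, SE 0.33, adjusted p = 0.07).

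Of 61 potassium channel genes 4 were higher and 1 lower. Besides Kcnk2 and Kcnk4 these were the inward rectifiers Kcnj3 (1.04, SE 0.14, adjusted p = 0.000302, higher in 17 of 17) and Kcnj6 (1.25, SE 0.28, adjusted p = 0.0147), which form channels opened by G proteins, and Kcnh7, of the ERG family. Kcnh7 was at 1.42, 4.73 and 6.27 in CA1 and at 1.08, 1.43 and 3.04 in CA3 (2.53, SE 0.46, adjusted p = 0.00257), and differed by 4.06 in the 9 mice without the 8. Of 28 calcium and sodium channel genes, Cacng5 and Cacng2 were the 2 calls. Of 68 neuromodulator receptor genes 4 were higher and 1 lower, beside 2.36% and 2.14% of all genes. Sstr4, a somatostatin receptor, was at 1.67, 5.15 and 7.04 in CA1 and at 1.92, 2.68 and 5.80 in CA3 (1.85, SE 0.38, adjusted p = 0.00762). Sstr2 (1.07, SE 0.26), the delta opioid receptor gene Oprd1 (1.41, SE 0.28) and Npy1r (0.83, SE 0.23, adjusted p = 0.0468, lost with any of 14 mice left out, up to 0.0914) were higher too. Cckbr, a cholecystokinin receptor, was lower, at 2.19, 3.01 and 5.11 in CA1 and 3.22, 4.64 and 6.04 in CA3 (−1.19, SE 0.21, adjusted p = 0.00204).

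Of 40 synaptic vesicle and release genes 2 were higher, Cadps2 and the synaptotagmin gene Syt2 (0.84, SE 0.23, lost with any of 11 mice left out, adjusted p up to 0.0798), and 5 were lower, while the list's median was 0.00. Besides Synpr, the lower genes were Syn2, a synapsin, at 6.06, 7.11 and 8.29 in CA1 and 7.64, 8.39 and 8.92 in CA3 (−1.17, SE 0.18, adjusted p = 0.000633), Rph3a, a Rab3 effector (−1.92, SE 0.39, adjusted p = 0.0071), Stx1a, a syntaxin (−0.88, SE 0.20), and Cplx2, a complexin (−0.64, SE 0.15). Stx1a and Cplx2 were not called without DN mice 4 and 5 (adjusted p = 0.052 and 0.0515). Among 29 neuropeptide and growth factor genes, Chgb, a granin of dense-core granules and among the brightest probe sets, was lower, at 10.02, 10.62 and 11.28 in CA1 and 10.83, 11.22 and 11.58 in CA3 (−0.56, SE 0.10, adjusted p = 0.00268). Nptx1 was the other lower gene, and Nptx2, Vip and Tac2 (1.02, SE 0.28, lost with any of 11 mice left out, up to 0.0907) were higher. Of 50 calcium-binding and kinase genes 4 were higher and 5 lower. The lower were Prkcd, Necab3, Camk2d, Camk1d, a calmodulin-dependent kinase (−0.73, SE 0.12), and Calm3, a calmodulin gene (−0.40, SE 0.09).

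Of 54 axon guidance genes 7 were lower and 2 higher, and the median was −0.04. The semaphorin gene Sema5b, like Sema5a, was lower, at 2.02, 2.69 and 3.98 in CA1 and 3.45, 4.62 and 5.79 in CA3 (−1.70, SE 0.22, adjusted p = 0.000153). Unc5c, a netrin receptor, was at 5.57, 6.98 and 8.34 in CA1 and at 7.57, 8.33 and 8.83 in CA3 (−1.32, SE 0.22, adjusted p = 0.00107). Nrp2, a co-receptor of secreted semaphorins, differed by −1.36 (SE 0.26, adjusted p = 0.00419), and Robo1, a receptor of Slit2, by −0.47 (SE 0.13, adjusted p = 0.0466, lost with any of 14 mice left out, up to 0.0853). The ligand Efnb3, an ephrin, was higher, at 2.33, 4.57 and 6.05 in CA1 and 1.66, 2.72 and 5.32 in CA3 (1.48, SE 0.24, adjusted p = 0.00103), as was the secreted Sema3a (1.06, SE 0.26, adjusted p = 0.0253, lost without tTA mouse 3 or DN mouse 3 or 6, up to 0.0521). Secreted Slit2 and its receptor gene Robo1 were thus both lower in CA1, though Robo1 passed only narrowly.

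Of 33 synaptic adhesion genes 4 were higher and 5 lower, beside 2.36% and 2.14% of all genes. Ptprd, a receptor phosphatase that organises presynaptic terminals, was at 7.30, 8.45 and 8.94 in CA1 and at 6.16, 7.15 and 7.89 in CA3 (1.17, SE 0.16, adjusted p = 0.000289, higher in 17 of 17). Lrrtm2, a postsynaptic partner of neurexins, differed by 0.70 (SE 0.14). Tenm3, a teneurin of CA1 projections in mice, was at 2.39, 6.13 and 7.98 in CA1 and at 2.17, 3.26 and 4.39 in CA3 (2.08, SE 0.51, adjusted p = 0.0249), lost the call without rTg4510 mouse 5, tTA mouse 3 or DN mouse 3 or 6 (up to 0.0518), and differed by 3.92 in the 9 mice without the 8. The lower genes were Nectin3, Cntn1 (−0.39, SE 0.08), Ncam1 (−0.62, SE 0.16), Cadm1 (−0.32, SE 0.08) and Cntn3 (−1.13, SE 0.30), of which the last 3 lost the call with any of 6, 7 and 10 mice left out. Of 52 cadherins 1 was higher, Cdh10 (0.85, SE 0.23, lost with any of 13 mice left out), and 2 lower, Cdh9 and Pcdh8, an activity-regulated protocadherin (−1.28, SE 0.29, adjusted p = 0.0138). Lypd1, which binds nicotinic receptors and was named after its values were seen, was at 3.03, 7.07 and 9.24 in CA1 and at 2.55, 3.74 and 5.29 in CA3 (2.26, SE 0.53, adjusted p = 0.0178).

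Of 65 matrix genes 4 were higher and 1 lower, beside 2.36% and 2.14% of all genes. Besides Ccn3 and Matn2, 2 proteoglycan genes of perineuronal nets were higher, with Acan, which encodes aggrecan, at 2.94, 5.45 and 7.19 in CA1 and 1.46, 2.58 and 5.10 in CA3 (2.23, SE 0.37, adjusted p = 0.00115) and Ncan, neurocan, at 7.06, 7.73 and 8.29 in CA1 and 6.41, 7.15 and 7.52 in CA3 (0.65, SE 0.11, adjusted p = 0.001). Without the 8 mice Acan differed by 1.84 and was not called (adjusted p = 0.0689). The proteoglycan genes Bcan (−0.01, SE 0.20, adjusted p = 0.985) and Vcan (0.08, SE 0.38, adjusted p = 0.947) of the same list were not called. Perineuronal nets surround parvalbumin interneurons and CA2 pyramidal neurons, whose genes are described above. Their part in these differences was not tested. Spock3, a testican, was lower (−1.44, SE 0.22, adjusted p = 0.000745). Of 34 cytoskeletal and tau-related genes, Dclk1, a microtubule-binding kinase, was higher (0.90, SE 0.14), and the growth-associated genes Gap43, at 5.04, 6.47 and 7.29 in CA1 and 6.67, 7.27 and 8.0 in CA3 (−0.99, SE 0.14, adjusted p = 0.000328, lower in 17 of 17), and Stmn2 (−0.81, SE 0.14) were lower. Ptgs2, the inducible cyclooxygenase, named after its values were seen, was lower too, at 3.0, 4.58 and 6.84 in CA1 and 4.80, 6.52 and 7.18 in CA3 (−1.47, SE 0.29, adjusted p = 0.00492).

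Of 78 oxidative phosphorylation genes 1 was higher (Atp5d, 0.35, adjusted p = 0.0288, lost with any of 7 mice left out, up to 0.058), with a median of 0.02, and of 68 ribosomal protein genes 2 were lower (Rpl36a, −0.61, adjusted p = 0.0193, and Rpl7, −0.55, adjusted p = 0.0243, which reached 0.05 without rTg4510 mouse 2), with a median of −0.12. Of 70 chaperone genes 2 were higher, Fkbp5, a glucocorticoid-induced co-chaperone (1.64, SE 0.32, adjusted p = 0.00422), and Dnajb5 (0.82, SE 0.14), and 2 were lower, Dnajb6 (−0.26, SE 0.06) and Hspa4l (−0.76, SE 0.18). Of 12 genes that the study's text names, Homer2, a postsynaptic scaffold, was higher (1.55, SE 0.29, adjusted p = 0.0033) and none was lower. Over all genes 2.36% were higher and 2.14% lower, and the oxidative phosphorylation, ribosomal and chaperone lists were near or below those shares.

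The DG means, from the same mice, lay on both sides. Of the 279 genes higher in CA1, the DG mean was above both layers for 81, below both for 48 and between them for 150. Of the 253 lower genes it was above both for 31, below both for 108 and between for 114. A gene called for a gap between the layers leaves more room for a DG mean between them. The same split over all genes is not given here, so these counts are only a description. Among the markers, Bcl6 averaged 7.12 in the DG, beside 6.61 in CA1 and 3.41 in CA3, and Synpr 7.91, beside 5.62 in CA1 and 8.14 in CA3. Crym was at 5.81 in the DG, beside 7.40 in CA1 and 2.36 in CA3. These comparisons share arrays and are given side by side only.

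Of the 902 calls, 901 had the same sign in the mean differences of rTg4510, tTA and DN mice, and the exception was 1810037I17Rik (−0.92 ± 0.54 in rTg4510, 0.05 ± 0.49 in tTA and −0.54 ± 0.31 in DN mice; SD, n = 6, 5 and 6). The 902 were called on the pooled mean of these same mice, so that a shared sign was favoured by the choice and is no replication. Within a genotype 5 probe sets (0.0221%) were called in rTg4510 mice, 125 (0.552%) in tTA mice and 149 (0.659%) in DN mice. Those of rTg4510 mice were Crym, Bcl6, Synpr, Prss23 and Sh3rf1, and all but Prss23 were called in every genotype. The Crym difference was 4.90 ± 1.84 in rTg4510, 5.62 ± 0.98 in tTA and 4.71 ± 1.32 in DN mice, and that of Sh3rf1, a ubiquitin ligase and scaffold of JNK signalling, 1.26 ± 0.45 in rTg4510, 1.15 ± 0.64 in tTA and 1.35 ± 0.27 in DN mice (SD, n = 6, 5 and 6). Of the 8 CA1 arrays low in Pou3f1, 3 are from rTg4510, 2 from tTA and 3 from DN mice, and the counts per genotype depend on the single mice (1 to 17 in rTg4510 mice when 1 was left out). On the line from the CA3 to the CA1 mean, the lowest CA1 arrays were those of rTg4510 mice 6 (0.24) and 1 (0.39). The lowest tTA array was at 0.51 and the lowest DN array at 0.56. The part of these arrays in the counts was not tested. Without DN mice 4 and 5 the count in DN mice was 0, with 4 mice left.

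Whether the difference between the layers depended on genotype was tested directly, on each mouse's CA1 minus CA3 difference. By limma 0 probe sets (0%) passed for rTg4510 against tTA, 0 (0%) for tTA against DN and 0 (0%) for rTg4510 against DN mice, while 940, 1079 and 820 had an unadjusted p under 0.05, out of 22626. Each of these counts is below the share of 0.05 that chance alone would give. The smallest adjusted p was 0.21, for Ipp, an actin-binding kelch protein, with −0.92 ± 0.90 in rTg4510 and 1.38 ± 0.58 in DN mice (SD, n = 6 each; difference −2.29, SE 0.37). Sh3gl3, an endophilin, had −0.50 ± 0.49 in rTg4510 and −1.87 ± 0.46 in tTA mice (SD, n = 6 and 5; difference 1.37, SE 0.29, adjusted p = 1). Prss23 had 5.23 ± 0.57 in tTA and 1.88 ± 1.59 in DN mice (SD, n = 5 and 6; difference 3.35, SE 0.81, adjusted p = 0.996). The DN means of Ipp and Prss23 include DN mice 4 and 5, whose arrays went against a label. Without these 2 mice 0 probe sets passed by limma in each of the 3 comparisons. For the 6 markers the adjusted p was between 0.996 and 1 in the 3 comparisons, which does not show that the genotypes are alike.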

How the data were processed

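Each array measured amplified RNA of 1 laser-captured layer of 1 mouse on the Affymetrix HT-MG-430A array. The authors deposited 1 table of log2 signals after robust multi-array averaging (RMA); the study's methods call the values anti-log, but their range is that of log2 values. Names came from the platform annotation. The test of CA1 against CA3 was a limma fit (version 3.58.1, under R 4.3.3) to the deposited log2 values, with mouse as a block and Benjamini-Hochberg adjustment over 22626 probe sets at 0.05. Genotypes were compared on each mouse's CA1 minus CA3 difference. The methods used Fisher's LSD, which was run as an alternative, beside other normalizations, filters, weights and left-out mice. The steps were tested on simulated data. The mouse number stands for the animal, so it pairs the arrays; deviations of arrays of the same mouse correlated at 0.0525 on average (−0.0575 to 0.146). A gene was described by its brightest probe set over the 34 arrays.

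The text names the 6 markers, the 20 genes highest and lowest among calls on the same side in at least 16 of 17 mice, every CA1, CA3 and CA2 list member, up to 8 called members of each list by p (or the 2 with the smallest p), and the 5 smallest p of each genotype comparison, of which only some are spelled out. Tagln3, Lypd1, Neto1 and Ptgs2 were added after their values were seen. The members and lists were chosen with earlier results of these data known. Arrays carry no depth, so that the number of mice limits the precision.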

Additional observations from a re-analysis of the deposited data

Results flagged for a closer look

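The difference of CA1 minus CA3 of the 6 markers was examined in each genotype, which makes 18 groups of 5 or 6 mice, and in 2 of them 1 mouse lay far from the rest of its group. Chance gives this in about 1 of 20 groups. Crym differed by 2.18 in DN mouse 2, against 4.77 to 5.98 in the other DN mice. That mouse had the highest Crym signal of all CA3 arrays (4.75), and its CA1 array is among the 8 low in Pou3f1. Synpr differed by −4.2 in tTA mouse 5, against −2.56 to −2.03 in the other tTA mice, and that CA1 array is among the 9 high in Pou3f1.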

How the results depend on the processing

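Without the replicate block of mouse, 473 probe sets were higher and 429 lower in CA1, and 769 of the 902 calls were shared. With 1 probe set per gene tested, 296 were higher and 267 lower, since fewer were tested. Other settings gave 857 to 1243 calls, and leaving out 1 mouse gave 702 to 928 (368 to 507 higher, 333 to 435 lower). Without DN mice 4 and 5 there were 692, of which 629 were among the 902. Without the 8 mice low in Pou3f1 there were 725, of which 501 were among the 902. Both sets were chosen after seeing the data. All 902 calls kept their sign in both, where the mice are part of those that made the calls. With median centring 409 were higher and 515 lower.

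Counts within a genotype were less stable, and the cause was not tested. In rTg4510 mice the 5 calls became 18 with an intensity trend, 10 with the filter at the 40th percentile, 1 without DN mice 4 and 5, 10 without the 8 mice, and 1 to 17 with 1 mouse left out (1 without mouse 2, 3 or 5 and 17 without mouse 6). With 1 mouse left out the 125 in tTA mice became 22 (without mouse 2) to 149 and the 149 in DN mice 19 (without mouse 6) to 226 (without mouse 2), and 0 in DN mice without mice 4 and 5. Between tTA and DN mice 1 probe set passed when only these genotypes were fitted and 2 without the 8 mice.

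Of 123 called genes named or eligible for naming, 84 kept the call under every alternative with a test, 20 lost it without DN mice 4 and 5, and 28 lost it in the 9 mice without the 8, with some genes in both counts. Of 2 uncalled genes near 0, Fgf2 (0.06) turned to −0.057 without DN mice 4 and 5 and lay at −0.142 to 0.248 with 1 mouse left out, and Avpr1b (−0.002) to 0.042 with quantile normalization and lay at −0.028 to 0.028 with 1 mouse left out.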
